A study of Arabidopsis thaliana with 20 samples.

Results

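The enzymes that split sucrose in the Arabidopsis leaf were followed across whole-leaf and stomata preparations. The set holds 10 genes chosen by locus and by no measured value. They are the invertases of the cell wall family cwINV1 (AT3G13790), cwINV3 (AT1G55120), cwINV4 (AT2G36190) and cwINV6 (AT5G11920), the vacuolar invertases AT1G62660 and ATBETAFRUCT4 (AT1G12240), and the sucrose synthases SUS1 (AT5G20830), SUS2 (AT5G49190), SUS3 (AT4G02280) and SUS4 (AT3G43190). These are 10 of the 25410 genes with a probe on the array, read by 19 probes. Of the 19 probes, 16 from 9 of the genes were tested, as all arrays of 1 or more groups showed them well above background. The exception was cwINV4, whose single probe was not well above background on any of the 20 arrays.

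RNA was measured on 20 one-colour arrays, 1 per pooled sample of 5 to 8 plants, in 8 groups that combine tissue, genotype and watering. The mutant bam1, a homozygous T-DNA line for the guard cell β-amylase BAM1, gave stomata after 5 days of drought (2 arrays), control stomata (2), leaves after drought (3) and control leaves (3). The wild type, Col-0, gave stomata after drought (2), control stomata (3), leaves after drought (2) and control leaves (3). The sample characteristics give all plants as 5 weeks old, although the treatment text names a different age at the start of drought. The mutant is represented by 1 insertion line, and major veins were cut out before stomata were prepared. In such mixed samples, fewer cells of a type and less RNA per cell cannot be told apart.

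Sucrose reaching a cell is used in either of these ways. Invertases hydrolyse it irreversibly to glucose and fructose, in the cell wall, the vacuole or the cytosol, while sucrose synthases convert it reversibly with UDP to fructose and UDP-glucose, which feeds cell wall and starch synthesis. Cell wall invertase sets sink strength together with hexose importers, vacuolar invertase affects turgor and hexose signals, and in guard cells sucrose and the sugars made from it are osmotic and respiratory substrates during stomatal movement. In Arabidopsis, cwINV3 and cwINV6 act as fructan exohydrolases in spite of their names.

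All values below are normalised signals on the log2 scale, in which 1 unit is a 2-fold difference, with arrays given in the order of their replicate numbers. A change was called where it reached 2-fold at a Benjamini-Hochberg adjusted p under 0.05 in limma, over all 30665 probes tested. Each gene is represented by its brightest probe, and further tested probes of SUS1, SUS2, SUS3, SUS4, AT1G62660 and ATBETAFRUCT4 are given beside it by their identifier. The p-values measure the spread between these pooled samples. Signals of different genes are not compared, since a probe's brightness depends on its sequence.

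The arrays had median signals of 163 to 576, with 63.2% to 75.4% of spots well above background. BAM1 read 6.45 to 9.71 on the bam1 arrays, against 10.90 to 13.97 on the Col-0 arrays except one. That exception, labelled as replicate 2 of droughted Col-0 stomata and called the BAM1-low array below, read 7.81, within the range of the mutant, so the main values for droughted Col-0 stomata are also given without it. The highest mutant value, 9.71, came from stomata bam1 control replicate 2, against 7.36 on the other array of that group. The summed signal of 9 guard cell markers was 15.24 to 16.67 in stomata samples and 12.25 to 13.11 in leaf samples. The sum of 7 phloem and vascular markers was 16.67 to 17.28 in stomata samples and 15.26 to 15.69 in leaf samples, and that of 4 epidermal markers 15.62 to 16.44 in stomata samples and 14.35 to 14.95 in leaf samples. The sum of 5 mesophyll markers covered 19.73 to 20.20 in stomata samples and 19.88 to 20.16 in leaf samples, and 0 of the 5 was called in any stomata and leaf comparison.

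**Figure D1:**
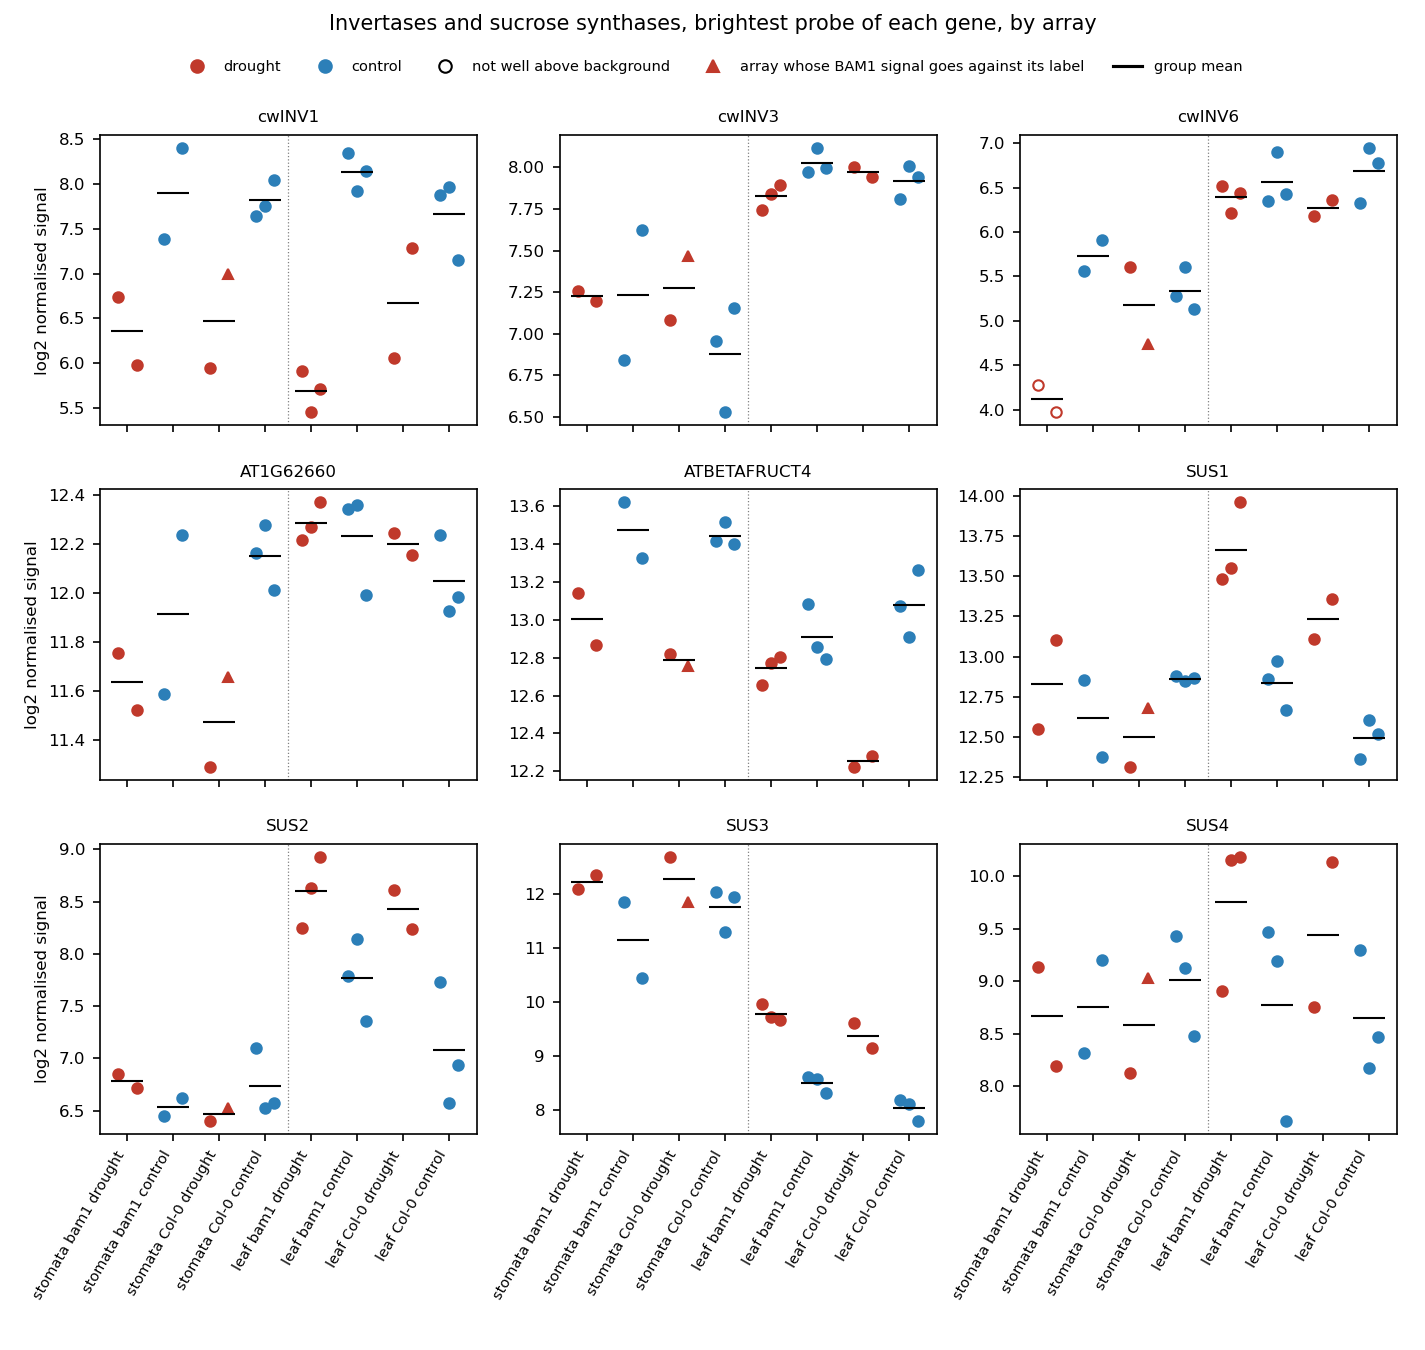
The log2 normalised signal of the brightest probe of 9 genes (y axis) on each of the 20 arrays, by group (x axis), with group means as bars and open points for arrays not well above background. For SUS3 the stomata arrays (10.46 to 12.70) lie above the leaf arrays (7.81 to 9.97), and for cwINV1 the droughted leaves of bam1 (5.45 to 5.91) lie below all others.

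Under drought, the transcript of the cell wall invertase cwINV1 was called lower in bam1 leaves and stomata. SUS3 was called higher in the leaves of both genotypes and SUS2 in those of Col-0. Changes of the same sign, not called, were seen for cwINV1 in Col-0 and for SUS2 in bam1 leaves. No difference between genotypes in the drought response of a member was called. In Col-0 leaves 2 of the 9 genes were called, SUS2 and SUS3, both higher, against 5.46% of all probes tested. In bam1 leaves 2 were called, SUS3 higher and cwINV1 lower, against 4.87% of probes. In bam1 stomata 2 were called, cwINV1 and cwINV6, both lower, against 5.77% of probes. In Col-0 stomata 0 were called in limma, against 3.40% of probes. Leaving out the BAM1-low array gave 1 call there, cwINV1, and leaving out stomata bam1 control replicate 2 gave 1 in bam1 stomata, cwINV6. At an unadjusted p under 0.05 the members numbered 5, 4, 4 and 3 in Col-0 leaves, bam1 leaves, bam1 stomata and Col-0 stomata, against 28.3%, 27.3%, 26.2% and 23.1% of probes. Without regard to size of change, 4, 3, 2 and 2 of the 9 passed the adjusted p in Col-0 leaves, bam1 leaves, bam1 stomata and Col-0 stomata, against 14.2%, 13.5%, 12.7% and 8.56% of probes. The median change of the 9 genes lay between -0.36 and 0.15 in the 4 comparisons, against -0.01 to 0.03 over all probes.

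**Figure D2:**
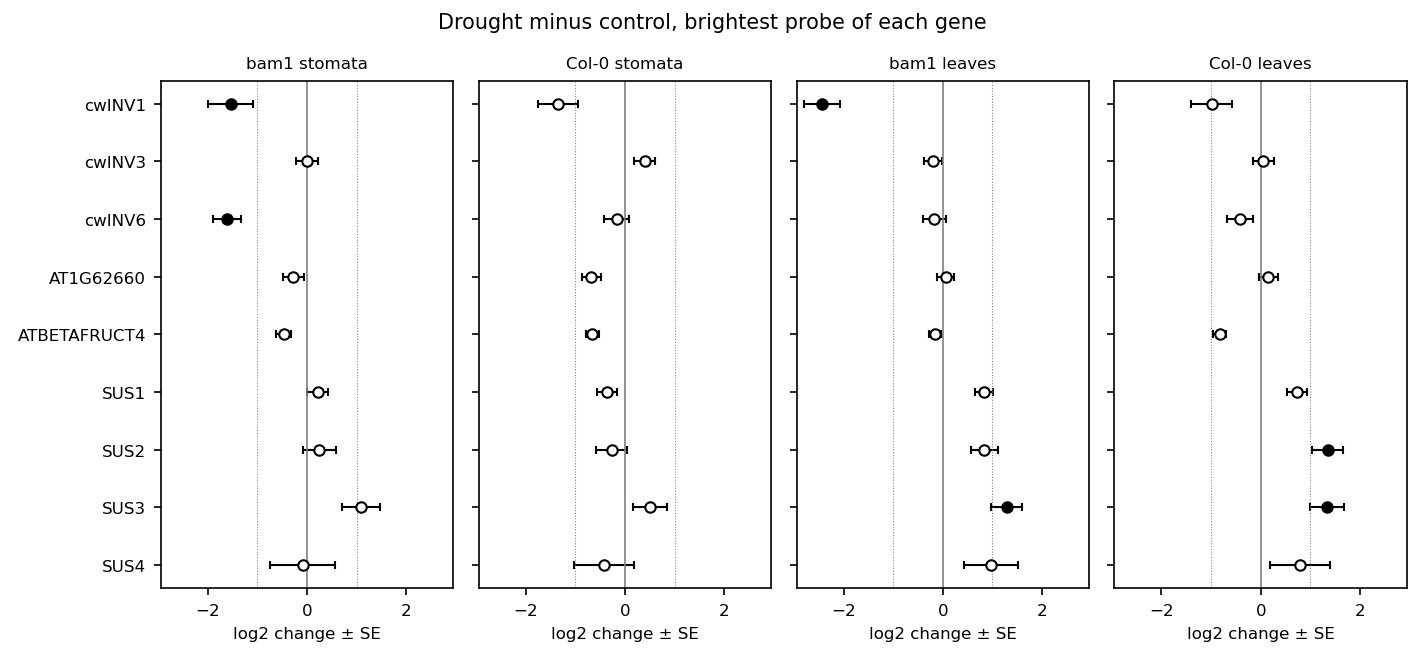
Drought minus control in log2 units ± SE (x axis) for 9 genes (y axis) in 4 comparisons, with filled points for called changes and dotted lines at a 2-fold change. In leaves cwINV1 lies on the side of lower signal in drought and SUS1, SUS2 and SUS3 on the other, from 0.74 to 1.35, whereas in stomata SUS1 and SUS2 lie between -0.36 and 0.24.

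By size, the first drought change to describe is that of cwINV1, which cleaves sucrose in the apoplast. Its signals in bam1 leaves were 5.91, 5.45 and 5.71 under drought and 8.34, 7.92 and 8.15 in control plants. The droughted and control arrays were far apart, and cwINV1 fell 5.43-fold (log2 change -2.44 ± 0.37 SE, adjusted p = 5.56e-04), a call that was kept under all 31 alternatives tried. The pair of bam1 leaf arrays that shared a slide differed by -2.43.

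In Col-0 leaves cwINV1 read 6.06 and 7.29 under drought, against 7.88, 7.97 and 7.15 in control plants. These groups overlapped, and the change of -0.99 ± 0.41 was not called (adjusted p = 0.126). With replicate 2 of droughted Col-0 leaves left out, the higher of the droughted arrays, it was -1.60 and was called (adjusted p = 0.0492). The difference between the responses of bam1 and Col-0 leaves, tested as an interaction, was -1.45 ± 0.55 and was not called (adjusted p = 0.338, 95% interval -2.63 to -0.28).

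In stomata, cwINV1 read 6.73 and 5.97 in droughted bam1, against 7.39 and 8.40 in control bam1. The groups did not overlap and the change of -1.54 ± 0.45 was called (adjusted p = 0.0364). The call was kept in 23 of 32 alternatives. In limma it was lost with slide as a block (adjusted p = 0.252) and with only these groups in the fit (0.221). No filter on dim probes (0.0585) and the replicate number as a block (0.0503) lost it too. With normexp background correction the change was -0.96, under 2-fold. The call was also lost without stomata bam1 drought replicate 2 (-1.16) and without stomata bam1 control replicate 2 (-1.03). The methods' own test, adjusted or not, did not call it either. In Col-0 stomata the signals were 5.94 and 6.99 under drought and 7.65, 7.75 and 8.05 in control plants, a change of -1.35 ± 0.41 that missed the threshold (adjusted p = 0.056). Without the BAM1-low array, it was -1.87 and was called (adjusted p = 0.0324). The guard cell marker sum moved with watering as well, at 12.25 to 12.45 in droughted leaves and 12.56 to 13.11 in control leaves, and at 15.24 to 15.59 in droughted stomata and 15.38 to 16.67 in control stomata. Its part in the cwINV1 result was not tested.

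By level, cwINV1 was highest in control leaves of bam1, with a mean of 8.14 ± 0.21 (SD, n = 3), and next in control stomata of bam1 (7.89), control stomata of Col-0 (7.82) and control leaves of Col-0 (7.66), whose array values overlapped. The means of droughted Col-0 leaves (6.67), droughted Col-0 stomata (6.47) and droughted bam1 stomata (6.35) followed, again with overlapping values. Droughted bam1 leaves stood last at 5.69 ± 0.23 (SD, n = 3), with no array above 5.91, against a lowest value of 5.94 elsewhere.

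The fructan exohydrolase cwINV6 was lower in droughted bam1 stomata, at 4.27 and 3.97, than in control bam1 stomata, at 5.56 and 5.91. Both droughted arrays were not well above background, so the size of the fold is uncertain. Raising dim signals to the lowest signal well above background on their array did not alter the group means. By these means the transcript was 3.05-fold lower (log2 change -1.61 ± 0.28, adjusted p = 0.00236). The call was lost with slide as a block (adjusted p = 0.112), with only these groups in the fit (0.114) and in the methods' t-test after adjustment (0.365). It was also lost with normexp background correction, where the change shrank to -0.44 (adjusted p = 0.0773). Changes in the other drought comparisons lay between -0.42 and -0.17 and were not called, and without the BAM1-low array that of Col-0 stomata was 0.26 (adjusted p = 0.62).

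Between genotypes, droughted stomata read 4.27 and 3.97 for cwINV6 in bam1, against 5.60 and 4.74 in Col-0. The difference of -1.05 ± 0.28 was not called (adjusted p = 0.874). Without the BAM1-low array, which gave the 4.74, it was -1.48 and was called (adjusted p = 0.0435). The interaction of genotype and drought in stomata was -1.44 ± 0.38 (adjusted p = 0.579), and without that array -1.87 (adjusted p = 0.0513).

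The other fructan exohydrolase, cwINV3, hardly moved with drought. Its changes were 0.05 in Col-0 leaves, 0.39 in Col-0 stomata, -0.20 in bam1 leaves and -0.01 in bam1 stomata, with adjusted p from 0.273 to 0.989. The value for Col-0 stomata was 0.20 (adjusted p = 0.691) without the BAM1-low array. It did differ by tissue, at 6.95, 6.53 and 7.16 in control Col-0 stomata, against 7.81, 8.01 and 7.94 in control Col-0 leaves. All stomata values lay below all leaf values, by -1.04 ± 0.18 (adjusted p = 2.80e-04), a change near 2-fold. It was under the fold threshold with the shift by the 75th percentile (-0.82), with normexp (-0.66), without leaf Col-0 control replicate 2 (-0.998) and without stomata Col-0 control replicate 2 (-0.87). The other tissue changes of cwINV3 were -0.70 in droughted Col-0 (adjusted p = 0.0226), -0.79 in control bam1 (0.006) and -0.60 in droughted bam1 (0.0267), under 2-fold, although control bam1 gave -1.18 and was called (5.66e-04) without stomata bam1 control replicate 2. Without the BAM1-low array droughted Col-0 gave -0.89 (0.0222). cwINV4, which in Arabidopsis serves the nectaries, read 2.37 to 3.87 and is given no change.

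Vacuolar invertases changed by less than 2-fold. ATBETAFRUCT4 read 12.23 and 12.28 in droughted Col-0 leaves, against 13.07, 12.91 and 13.26 in control Col-0 leaves. The arrays were well separated at a change of -0.83 ± 0.14 (adjusted p = 0.0011). In droughted Col-0 stomata it read 12.82 and 12.76, against 13.41, 13.52 and 13.40 in control Col-0 stomata, a change of -0.66 ± 0.14 (adjusted p = 0.00875), and of -0.63 (adjusted p = 0.0473) without the BAM1-low array. For bam1, the leaf change was -0.17 (adjusted p = 0.417), and the stomata change -0.47 had an adjusted p of 0.0534. The difference between the leaf responses of the genotypes was 0.66 ± 0.18 and was not called (adjusted p = 0.234). A dimmer probe of the gene, A_84_P800885, gave -0.74, -0.92, -0.48 and -0.94 in Col-0 leaves, Col-0 stomata, bam1 leaves and bam1 stomata. Its adjusted p values in limma were 0.0321, 0.0156, 0.111 and 0.0166 in that order, with no change reaching 2-fold. The third, A_84_P815621, gave 0.30, -0.73, -0.056 and -0.45 in the same order, with adjusted p from 0.303 to 0.947, so in Col-0 leaves its value was positive where those of the other probes were negative.

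AT1G62660, the other vacuolar invertase, read 11.29 and 11.66 in droughted Col-0 stomata, against 12.16, 12.28 and 12.01 in control Col-0 stomata. This change of -0.68 ± 0.19 passed the adjusted p (0.0373) but not the fold threshold, and was -0.86 (adjusted p = 0.0377) without the BAM1-low array. The bam1 stomata gave -0.28. In leaves its brightest probe changed by 0.15 in Col-0 and 0.05 in bam1. Its other probe, A_84_P23381, read 12.54, 12.48 and 12.22 in droughted bam1 leaves and 11.96, 11.83 and 11.63 in control bam1 leaves, a change of 0.60 ± 0.16 (adjusted p = 0.0198). In Col-0 leaves, bam1 stomata and Col-0 stomata it gave 0.50, 0.35 and -0.37 (adjusted p from 0.0725 to 0.274), so the probes of this gene gave different sizes for the same samples.

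Among the sucrose synthases, SUS3 marked the stomata samples. It read 12.05, 11.30 and 11.96 in control Col-0 stomata, against 8.19, 8.13 and 7.81 in control Col-0 leaves. No stomata array came near a leaf array, and the signal was 13.3-fold higher in stomata (log2 change 3.73 ± 0.31, adjusted p = 3.23e-07). In control bam1 it read 11.85 and 10.46 in stomata and 8.63, 8.58 and 8.32 in leaves, 6.26-fold higher in stomata (log2 change 2.65, adjusted p = 3.43e-05). The stomata arrays of that group were far apart, and the change, still called, was 3.34 without stomata bam1 control replicate 2 and 1.95 without replicate 1. In droughted bam1 it read 12.11 and 12.36 in stomata and 9.97, 9.73 and 9.67 in leaves, 5.44-fold higher in stomata (adjusted p = 5.92e-05). In droughted Col-0 it read 12.70 and 11.87 in stomata and 9.61 and 9.15 in leaves, 7.47-fold higher in stomata (adjusted p = 4.13e-05), and without the BAM1-low array the change was 3.31 (adjusted p = 1.24e-04).

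A second SUS3 probe, A_84_P822209, gave stomata minus leaf changes of 3.25, 2.55, 2.47 and 2.93 in control Col-0, control bam1, droughted bam1 and droughted Col-0, all called. Under drought it gave 1.09 in bam1 leaves, called (adjusted p = 0.0418), and 1.01 in Col-0 leaves, not called (adjusted p = 0.0846). That bam1 call was kept in 15 of 30 alternatives. Among those that lost it were normexp, no filter on dim probes, slide as a block and the methods' t-test after adjustment. The guard cell markers moved the same way, with 9, 9, 8 and 8 of the 9 called higher in stomata in those comparisons, and so did 3, 4, 3 and 4 of the 7 phloem and vascular markers and 1, 2, 2 and 3 of the 4 epidermal markers. Called lower were 2, 2, 1 and 1 of the phloem and vascular markers and 0 of the epidermal ones. Every guard cell marker was well above background on all 20 arrays. The part of these cell types in the SUS3 signal was not tested. The array with the lowest SUS3 signal among stomata samples, 10.46 in stomata bam1 control replicate 2, had a guard cell marker sum of 15.38, against 16.64 on the other array of its group. The droughted bam1 stomata arrays had lower sums, 15.24 and 15.25, with SUS3 at 12.11 and 12.36.

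SUS3 also rose with drought in leaves. The signals just given put every droughted leaf array above every control leaf array, by 1.34 ± 0.35 in Col-0 (2.53-fold, adjusted p = 0.0185) and 1.28 ± 0.31 in bam1 (2.43-fold, adjusted p = 0.0133). Arrays sharing a slide differed by 1.42 in Col-0 and 1.35 in bam1. The Col-0 call did not survive leaving out replicate 1 of droughted Col-0 leaves (1.11) or replicate 3 of control Col-0 leaves (1.22, adjusted p = 0.0631), or the methods' t-test after adjustment (0.118). The bam1 call was lost with slide as a block (1.16, adjusted p = 0.0767), without leaf bam1 drought replicate 1 (1.19, 0.0528) and without leaf bam1 control replicate 3 (1.19, 0.0546). In stomata the changes were 1.08 ± 0.38 in bam1 (adjusted p = 0.0783) and 0.51 ± 0.35 in Col-0 (adjusted p = 0.413), the second being 0.92 (adjusted p = 0.193) without the BAM1-low array. Without stomata bam1 control replicate 2, the bam1 change was 0.38 (adjusted p = 0.621), and without stomata bam1 control replicate 1 it was 1.78 (adjusted p = 0.00556). The guard cell marker sum was lower in droughted than in control leaves, as given above. By marker, 1 of the 9 was called higher and 1 lower in Col-0 leaves, with a median change of -0.11. In bam1 leaves 0 were called higher and 1 lower, with a median of -0.41. The part of guard cells in the leaf change of SUS3 was not tested.

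Ordered by level, the SUS3 group means were 12.28 in droughted Col-0 stomata, 12.24 in droughted bam1 stomata, 11.77 in control Col-0 stomata and 11.16 in control bam1 stomata, then 9.79 and 9.38 in droughted leaves of bam1 and Col-0, and 8.51 and 8.04 in control leaves of bam1 and Col-0. The droughted stomata groups overlapped each other in their arrays, as did the control stomata groups, and the droughted bam1 stomata lay just above the control Col-0 stomata. The droughted and the control leaves of either genotype formed separate steps, and within each step bam1 lay above Col-0 on every array, by differences that were not called (0.41, adjusted p = 0.566, and 0.47, adjusted p = 0.703).

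SUS2, best known from developing seeds, changed with drought in leaves. In Col-0 leaves it read 8.61 and 8.24 under drought, against 7.73, 6.57 and 6.93 in control plants, 2.55-fold higher (1.35 ± 0.31, adjusted p = 0.00938). In bam1 leaves it read 8.25, 8.63 and 8.93 under drought and 7.79, 8.15 and 7.36 in control plants, a change of 0.84 ± 0.28 that was not called (adjusted p = 0.0588). Droughted and control arrays did not overlap in either genotype. The dimmer SUS2 probe, A_84_P10267, gave 0.67 in Col-0 leaves (adjusted p = 0.173) and 0.66 in bam1 leaves (adjusted p = 0.144) and was not called. The Col-0 call did not survive leaving out replicate 1 of droughted Col-0 leaves (1.16, adjusted p = 0.105) or fitting only these groups (adjusted p = 0.0872), and the arrays on a shared slide differed by 0.89.

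In stomata the probes of SUS2 disagreed. The brightest read 6.40 and 6.53 in droughted Col-0 stomata, against 7.10, 6.53 and 6.58 in control ones, and 6.85 and 6.72 in droughted bam1 stomata, against 6.45 and 6.63 in control ones. Its changes, -0.27 and 0.24, were not called, and that of Col-0 was -0.33 without the BAM1-low array. The dimmer probe, A_84_P10267, read 5.71 and 6.25 in droughted Col-0 stomata, against 5.20, 3.71 and 4.47 in control ones, a change of 1.52 ± 0.31 (adjusted p = 0.00828). It read 6.33 and 6.52 in droughted bam1 stomata, against 4.61 and 4.66 in control ones, a change of 1.79 ± 0.34 (adjusted p = 0.00398). On that probe 1 control array of each genotype was not well above background, and without the BAM1-low array the Col-0 change was 1.26 and not called (adjusted p = 0.0679). With slide as a block, neither was called.

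By tissue, the brightest SUS2 probe was 3.89-fold lower in stomata than in leaves of droughted Col-0 (-1.96 ± 0.34, adjusted p = 3.80e-04, and -2.02 without the BAM1-low array, adjusted p = 0.00297), 3.53-fold lower in droughted bam1 (-1.82 ± 0.31, adjusted p = 2.65e-04) and 2.34-fold lower in control bam1 (-1.23 ± 0.31, adjusted p = 0.00494). Control Col-0 gave -0.34 (adjusted p = 0.311). The dimmer probe A_84_P10267 ordered these comparisons differently, with called changes in control Col-0 (-1.18, adjusted p = 0.0027) and control bam1 (-1.02, adjusted p = 0.016, but 0.0577 without stomata bam1 control replicate 2) and values of -0.33 and 0.12 in droughted Col-0 and droughted bam1. Whether the drought response of Col-0 differed between stomata and leaves was tested as an interaction, which was -1.62 ± 0.44 for SUS2 (adjusted p = 0.0688) and -1.10 ± 0.28 for SUS1 (adjusted p = 0.0571). Without the BAM1-low array they were -1.68 (adjusted p = 0.108) and -1.28 (adjusted p = 0.0579). Neither was called, against 1.52% of all probes, although SUS2 was called after normexp correction and SUS1 after the shift by the 75th percentile and without stomata bam1 control replicate 2.

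SUS1, a main isoform of vegetative tissue that responds to low oxygen, passed the adjusted p but not the fold threshold in droughted leaves. Col-0 leaves read 13.11 and 13.36 under drought and 12.37, 12.61 and 12.52 in control plants (0.74 ± 0.20, adjusted p = 0.023). Leaves of bam1 read 13.48, 13.55 and 13.96 under drought and 12.86, 12.97 and 12.67 in control plants (0.83 ± 0.18, adjusted p = 0.00652). The arrays were separate in both genotypes. In stomata the changes were -0.36 in Col-0 (adjusted p = 0.296, and -0.55 without the BAM1-low array) and 0.21 in bam1 (adjusted p = 0.603). The dimmer probe A_84_P816558 gave 1.35, 0.14, 1.21 and 0.74 in Col-0 leaves, Col-0 stomata, bam1 leaves and bam1 stomata, with adjusted p from 0.238 to 0.94.

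SUS4, the closest relative of SUS1 in Arabidopsis, varied widely between arrays of a group. Its brightest probe read 8.91, 10.15 and 10.18 in droughted bam1 leaves, against 9.46, 9.19 and 7.67 in control bam1 leaves. The 4 drought changes ran from -0.43 to 0.97 with SE of 0.54 to 0.66, and none was called. A 95% interval of -0.19 to 2.13 for bam1 leaves leaves a change of more than 2-fold possible on this probe. The dimmer probe, A_84_P20298, had negative values in leaves, -0.37 in Col-0 (adjusted p = 0.806) and -0.74 in bam1 (adjusted p = 0.546), so no drought direction is given for SUS4.

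The brightest and dimmer probes of SUS1 and SUS4 gave different tissue patterns. For SUS1 in control Col-0, the brightest changed by 0.37 between stomata and leaves (adjusted p = 0.0958). A_84_P816558 was 6.08-fold lower in stomata (adjusted p = 0.00339), where it was not well above background on any array. For SUS4 the brightest changed by 0.36 (adjusted p = 0.60). A_84_P20298 was 7.08-fold lower in stomata with dim signals raised as for cwINV6 (adjusted p = 0.00263), again not well above background there. With normexp neither of these dimmer probes was called. ATBETAFRUCT4 split likewise, with its brightest probe 0.36 higher in stomata (adjusted p = 0.021) and A_84_P800885 at -0.64 (adjusted p = 0.0111). In control and droughted bam1 A_84_P800885 was called lower in stomata, at -1.01 and -1.47, as was A_84_P815621 at -1.23 and -1.62, and at -1.73 in droughted Col-0. The A_84_P815621 calls were lost without stomata bam1 control replicate 2 in control bam1 (-1.20, adjusted p = 0.0879) and without the BAM1-low array in droughted Col-0 (-1.21, adjusted p = 0.081). For AT1G62660, A_84_P23381 was called lower in stomata of droughted Col-0 (-1.05, adjusted p = 5.80e-04), where the brightest probe gave -0.73 (adjusted p = 0.0111), and without the BAM1-low array these were -1.08 and -0.91. In droughted plants both SUS1 probes were lower in stomata. The brightest passed the adjusted p but not the fold threshold, with means of 12.50 against 13.23 in Col-0 leaves and 12.83 against 13.66 in bam1 leaves. A_84_P816558 was called, at -3.82 in Col-0 and -2.45 in bam1. On this probe 0 of the 2 droughted Col-0 stomata arrays and 1 of the 2 of bam1 were well above background, so both sizes are uncertain. Its call was kept in 29 of 30 alternatives in Col-0 and in 26 of 30 in bam1. Among those that lost the bam1 call were only these groups in the fit and leaving out stomata bam1 drought replicate 1. Both tested SUS4 probes also read lower in stomata of droughted plants, and the brightest was not called. A_84_P20298 was called in Col-0 (-2.87, adjusted p = 0.0141) but not in bam1 (-1.03, adjusted p = 0.293). It was well above background on 0 of the 2 droughted Col-0 stomata arrays and on 1 of the 2 of bam1. The Col-0 call was lost with slide as a block, with normexp, with only these groups in the fit and without the BAM1-low array (-2.82). No direction over all 4 tissue comparisons is given for SUS1, SUS4 or ATBETAFRUCT4. Whether a probe binds transcripts of a related gene was not tested, as probe sequences were not used here.

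**Figure D3:**
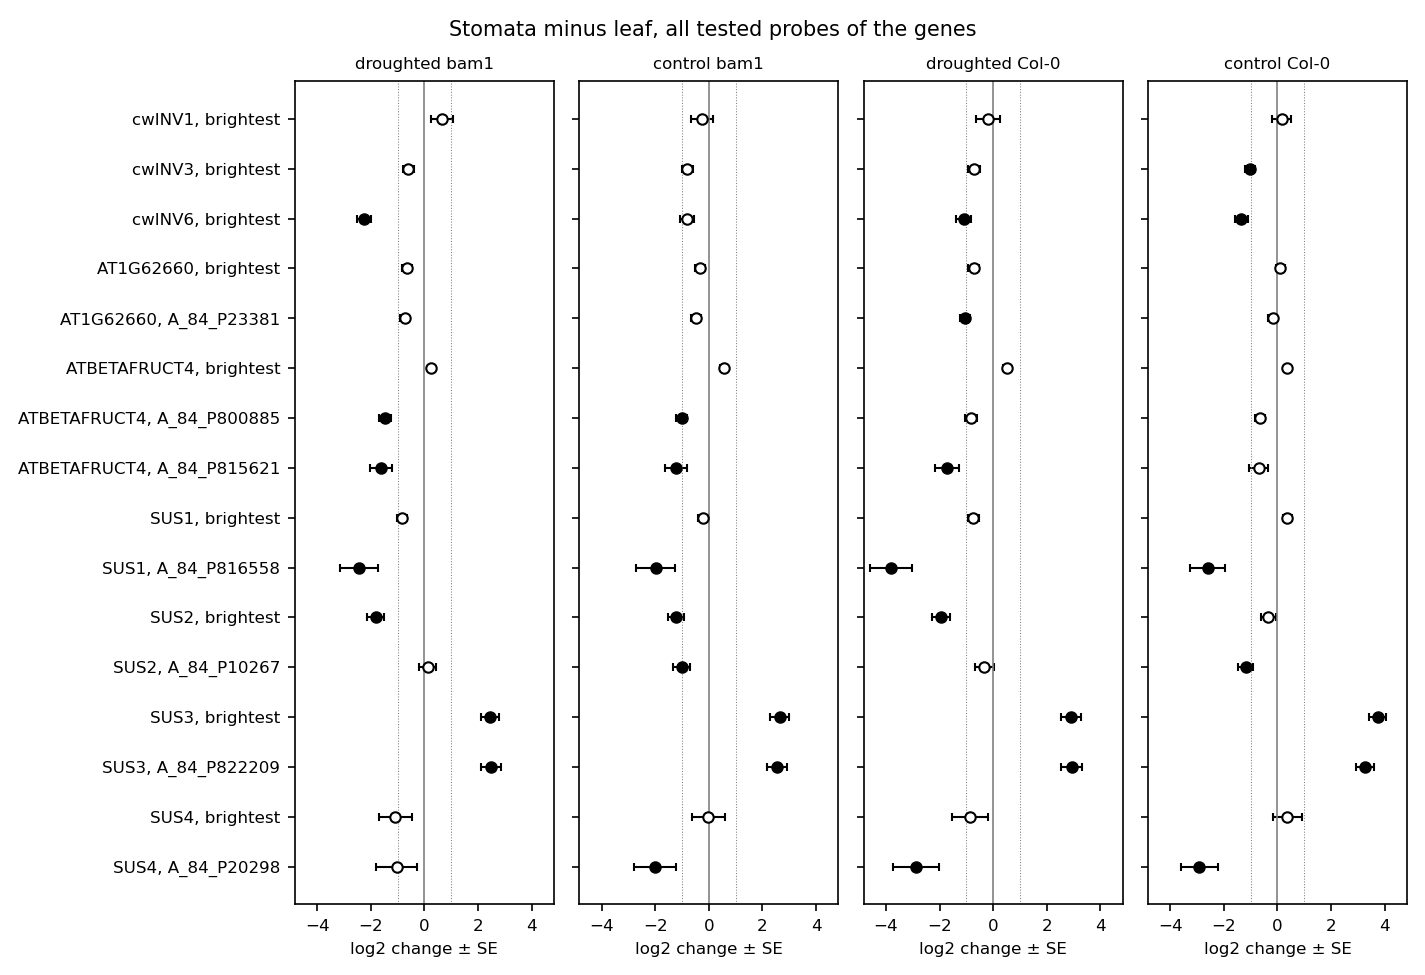
Stomata minus leaf in log2 units ± SE (x axis) for the 16 tested probes (y axis) in 4 comparisons, with filled points for called changes and dotted lines at a 2-fold change. Both SUS3 probes lie between 2.44 and 3.73 in all 4 panels. The probes of ATBETAFRUCT4 split in sign in all 4 panels, and those of SUS1 and SUS4 in control Col-0 only.

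Counted by brightest probe, 3 of the 9 genes differed between stomata and leaves of control Col-0 (cwINV3, cwINV6, SUS3), against 24.4% of all probes, and 3 in droughted Col-0 (cwINV6, SUS2, SUS3), against 21.2%. In bam1, 2 differed in control plants (SUS2, SUS3), against 22.0%, and 3 in droughted plants (cwINV6, SUS2, SUS3), against 22.9%. These shares are near the background of a contrast in which a large part of the array differs. By adjusted p alone 4, 7, 5 and 6 of the 9 passed in these comparisons, against 53.0%, 41.3%, 45.7% and 47.3% of probes.

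Of these, cwINV6 was lower in stomata. It read 5.28, 5.61 and 5.13 in control Col-0 stomata, against 6.33, 6.94 and 6.78 in control Col-0 leaves (-1.34 ± 0.23, adjusted p = 2.19e-04). In droughted bam1 it was 4.81-fold lower in stomata (adjusted p = 9.32e-06), where neither array was well above background, so the size of the fold is uncertain. Droughted Col-0 gave -1.09 ± 0.28 (adjusted p = 0.00664), and without the BAM1-low array it was -0.66 and not called (adjusted p = 0.0998). It was not called with slide as a block (0.0807) or with only these groups in the fit (0.0815) either. The shift by the 75th percentile took the control Col-0 change to -0.85 and the droughted Col-0 change to -0.93, below the fold threshold. With normexp the changes were -0.54 in control Col-0, -0.40 in droughted Col-0 and -0.72 in droughted bam1, none of them called. Control bam1 gave -0.83 (adjusted p = 0.0171), not called, and -1.004, called (adjusted p = 0.0265), without stomata bam1 control replicate 2.

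Between bam1 and Col-0, 0 of the 9 genes were called in limma in any of the 4 comparisons. The backgrounds were 0.398% of probes in control leaves, 0.268% in droughted leaves, 0.0587% in control stomata and 0.0196% in droughted stomata, and at an unadjusted p under 0.05 the members numbered 1, 3, 0 and 1, against 9.56%, 18.3%, 8.53% and 3.96% of probes. The lowest adjusted p was 0.0947, for ATBETAFRUCT4 in droughted leaves, which read 12.65, 12.77 and 12.80 in bam1 and 12.23 and 12.28 in Col-0 (0.49 ± 0.14). For cwINV1 in droughted leaves the difference was -0.98 ± 0.41 (adjusted p = 0.223, 95% interval -1.86 to -0.10). The responses to drought were called as different between genotypes for 0 members in leaves (0.00979% of probes) and 0 in stomata (0.0163%), and between tissues for 0 in bam1 (0.0685%). At an unadjusted p under 0.05 the members with such differences numbered 2, 1 and 2, against 12.2%, 5.51% and 9.33% of probes, and 3 between tissues in Col-0, against 18.6%.

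The enzymes act among inhibitors, transporters and kinases, listed here as 44 further genes, 35 of them with a tested probe. At an unadjusted p under 0.05 in limma, 10, 14, 17 and 11 of the 35 passed under drought in Col-0 leaves, bam1 leaves, bam1 stomata and Col-0 stomata. The shares of all probes were 28.3%, 27.3%, 26.2% and 23.1%. In Col-0 leaves under drought 3 of the 35 were called, 1 higher and 2 lower, and in bam1 leaves 1, lower. In bam1 stomata 3 were called, 2 higher and 1 lower, and in Col-0 stomata 0. The shares of all probes called were the 5.46%, 4.87%, 5.77% and 3.40% given above. Without stomata bam1 control replicate 2 the bam1 stomata count was 2, and without the BAM1-low array the Col-0 stomata count was 1. The median change of the list was between -0.07 and 0.13. The 7 alkaline and neutral invertases, which work in the cytosol and organelles, and the phloem sucrose synthases SUS5 and SUS6 had 0 called drought changes. Between stomata and leaves, 9 of the 35 were called in control Col-0, 9 in droughted Col-0, 9 in control bam1 and 10 in droughted bam1, 8 of them higher in stomata each time. These counts stand beside 24.4%, 21.2%, 22.0% and 22.9% of all probes, of whose calls 48.7%, 50.4%, 50% and 53.3% were higher in stomata. The genes higher in stomata included the neutral invertase A/N-InvB (2.85, 2.07, 2.30 and 1.99 higher) and SUS6 (1.66, 1.49, 1.56 and 1.55 higher), both chosen after their values were seen. Without the BAM1-low array SUS6 in droughted Col-0 was 1.06 higher and not called (adjusted p = 0.0543).

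C/VIF1, which encodes an inhibitor of vacuolar invertase, passed the adjusted p with higher signals under drought in all 4 comparisons. It read 12.65 and 12.41 in droughted Col-0 leaves, against 11.23, 11.13 and 11.02 in control ones (1.40 ± 0.18, adjusted p = 1.86e-04), and 12.72 and 12.95 in droughted bam1 stomata, against 11.32 and 11.87 in control ones (1.24 ± 0.20, adjusted p = 0.00122). The bam1 stomata call was lost with slide as a block, with only these groups in the fit and without stomata bam1 control replicate 1. In bam1 leaves (0.74, adjusted p = 0.00715) and Col-0 stomata (0.83, adjusted p = 0.0112) the change passed the adjusted p but not the fold threshold, and without the BAM1-low array the second was 0.97 (adjusted p = 0.0203). The related inhibitor gene C/VIF2 had negative changes, from -0.94 to -0.30, and none reached 2-fold.

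STP1, a plasma membrane hexose importer, fell in leaves of both genotypes and in bam1 stomata. It read 11.69, 11.90 and 11.58 in droughted bam1 leaves, against 12.93, 13.01 and 12.66 in control ones (-1.14 ± 0.16, adjusted p = 4.01e-04). The change was -1.10 in Col-0 leaves (adjusted p = 0.00123), -1.14 in bam1 stomata (adjusted p = 0.0024) and -0.63 in Col-0 stomata (adjusted p = 0.0464), which was -0.51 (adjusted p = 0.206) without the BAM1-low array. The bam1 stomata call was lost with slide as a block, with only these groups in the fit, without stomata bam1 drought replicate 2 and without stomata bam1 control replicate 1, and the Col-0 leaf call with normexp (-0.996). HXK3, a plastid hexokinase, fell in Col-0 leaves (-1.38 ± 0.27, adjusted p = 0.0039) and lost its call with normexp or with replicate 1 of droughted Col-0 leaves left out. SPS2F, a sucrose-phosphate synthase, rose in bam1 stomata (1.36 ± 0.33, adjusted p = 0.0152), where the control arrays read 9.04 and 7.65, the lower on replicate 2. Without that array its change was 0.66 and was not called (adjusted p = 0.158), and the call was also lost with slide as a block, with only these groups in the fit and without stomata bam1 drought replicate 2. Of the 7 pathway calls under drought, that of STP1 in bam1 leaves alone was kept in the methods' t-test after adjustment.

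**Figure D4:**
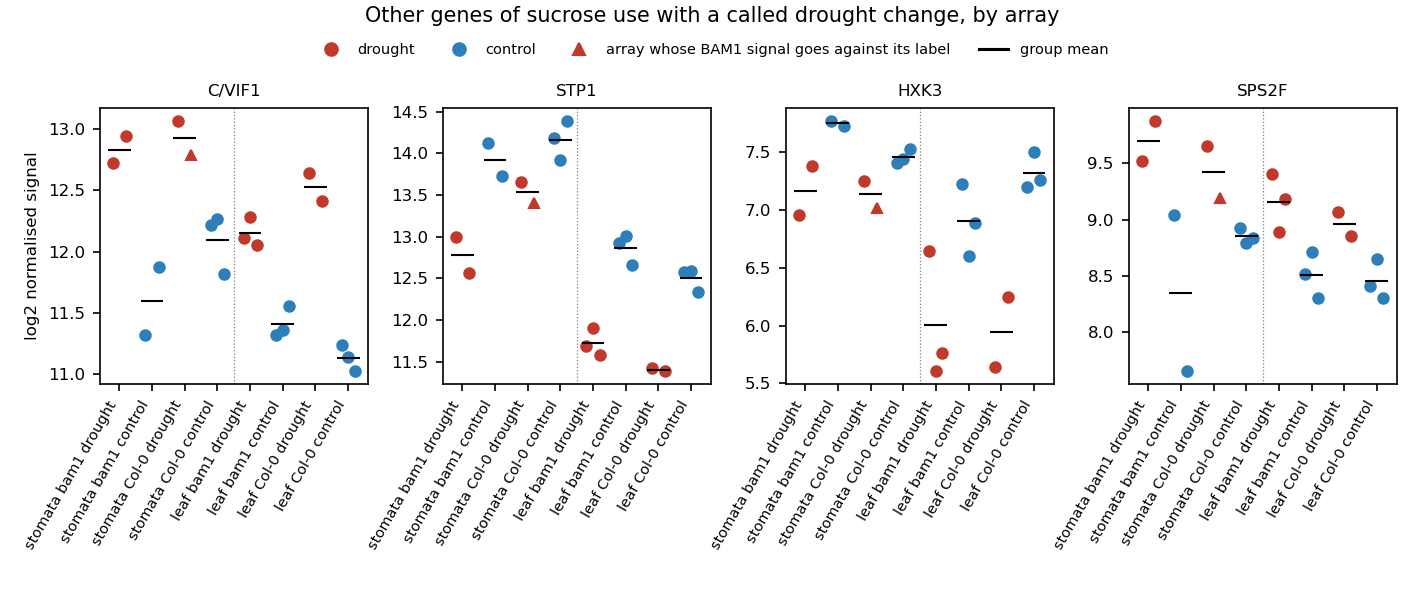
The log2 normalised signal (y axis) of the 4 further genes with a called drought change on each of the 20 arrays, by group (x axis), with group means as bars. For C/VIF1 and STP1 the droughted arrays of each tissue and genotype are apart from their controls, with C/VIF1 above and STP1 below them.

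Across the 20 arrays, the brightest probe of a member was set against every tested probe of other genes by Pearson correlation, keeping each gene's best probe. The genes most like SUS3 were YSL2 (r = 0.992) and AtCDC48B (r = 0.988). For SUS2 they were PKT4 (r = 0.949) and AT5G11090 (r = 0.938), for cwINV1 AT1G18440 (r = 0.948) and TBL6 (r = 0.938), and for cwINV6 CRK7 (r = 0.958) and AT3G54150 (r = 0.946). The arrays fall into tissue groups that these values share, and the correlations are a description over the 4 members called in a drought comparison.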

How the data were processed

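Total RNA of leaf and stomata samples was hybridised to one-colour Agilent arrays, 1 array per sample, 20 in all. The deposited scanner files give an intensity per spot, which the authors obtained with Agilent Feature Extraction (version 11.5.1.1 per the file headers, while the methods name another version) as a background-subtracted, detrended signal. The deposited series table holds log2 values that the authors quantile-normalised and centred on each probe's median, and it was used as an alternative. Its columns correlated with the normalised scanner values at r = 0.990 to 1.00 after centring.

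Signals were put on the log2 scale and quantile-normalised in R 4.3.3, control spots and outlier spots were left out, and spots of a probe were averaged. Of 43603 probes, 30665 were tested, as all arrays of 1 or more groups showed them well above background. A mean per group was fitted over the 20 arrays with limma 3.58.1 (12 residual degrees of freedom), and 16 comparisons were taken from it. Gene names came from RefSeq through each probe's accession, for 34348 probes (78.8%). The probe with the highest mean signal stood for a gene. The procedure was tested on simulated data with 200 changed probes. Figures were drawn with matplotlib 3.10.9.

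The members and gene lists were chosen with earlier results of these data known. The rule for naming genes took all members, the pathway genes with a called drought change and, for each member called under drought, the most alike genes. Groups came from the labels, and 1 sample's title and source name differ in replicate number. Alternatives covered background correction, normalisation, filter, samples in the fit, slide, replicate block, the methods' t-test, the fold threshold, the probe rule and leaving out each array, and were extended to the pathway genes after seeing the data. Mean spot signals were replaced by median spot signals in the normexp alternative, with an offset of 50. Probe sequences and coordinates were not used here.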

Additional observations from a re-analysis of the deposited data

How the results depend on the processing

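The cwINV1 call in bam1 leaves and the SUS3 calls between stomata and leaves of control Col-0 and droughted bam1 plants were kept under all 31 alternatives, and the SUS3 calls in droughted Col-0 and control bam1 were lost only in the methods' t-test after adjustment (adjusted p = 0.127 and 0.0792). The count of members called moved as follows, from 2, 0, 2 and 2 under drought in Col-0 leaves, Col-0 stomata, bam1 leaves and bam1 stomata, and 3, 3, 2 and 3 between stomata and leaves of control Col-0, droughted Col-0, control bam1 and droughted bam1. Without a fold threshold it was 4 in Col-0 leaves, 2 in Col-0 stomata, and by tissue 7 in droughted Col-0, 5 in control bam1 and 6 in droughted bam1. With no filter on dim probes it was 1 in bam1 stomata. With normexp it was 0 in bam1 stomata, by tissue 1 in control Col-0 and 1 in control bam1, and 1 for tissue by drought in Col-0. With the 75th percentile shift it was 1 by tissue in control Col-0 and 1 for tissue by drought in Col-0. With only the compared groups in the fit it was 1 in Col-0 leaves and 0 in bam1 stomata, and with slide as a block 0 in bam1 stomata and 1 by tissue in control bam1. The methods' t-test gave 1 in Col-0 leaves, 1 in Col-0 stomata and 1 in bam1 stomata unadjusted, and after adjustment 0 in Col-0 leaves, 0 in bam1 stomata, and by tissue 0 in control bam1 and 0 in droughted Col-0. Leaving out 1 array at a time gave 0 to 3 in Col-0 leaves, 0 to 1 in Col-0 stomata, 1 to 3 in bam1 leaves, 1 to 3 in bam1 stomata, 2 to 4 by tissue in control bam1, 0 to 1 between genotypes in droughted stomata and 0 to 1 for tissue by drought in Col-0. Samples of the same replicate number had deviations correlated at -0.264 to 0.158, so the numbers did not pair the samples, and with the replicate number as a block the count stayed 2 in bam1 stomata, with SUS3 in place of cwINV1. A crossed pairing in bam1 stomata, chosen after seeing the data, gave 3. Signs turned mostly for small changes that were not called. With the mean of a gene's probes, AT1G62660 was 0.037 under drought in bam1 stomata and -0.041 by tissue in control Col-0, ATBETAFRUCT4 by tissue -0.32 in control Col-0, -0.56 in control bam1, -0.67 in droughted Col-0 and -0.94 in droughted bam1, SUS2 0.63 under drought in Col-0 stomata, SUS4 0.069 under drought in bam1 stomata, and SUS1 -1.12 and SUS4 -1.28 by tissue in control Col-0, both called (adjusted p = 0.0207 and 0.0488). With normexp, AT1G62660 was -0.011 under drought in bam1 leaves and -0.024 by tissue in control Col-0, and SUS4 0.018 by tissue in control bam1. With slide as a block, AT1G62660 was -0.039 under drought in Col-0 leaves and -0.045 by tissue in control Col-0, SUS1 0.13 by tissue in control bam1, SUS4 -0.017 under drought in Col-0 leaves, 0.40 in bam1 stomata, and by tissue -0.0080 in control Col-0 and 0.54 in control bam1, cwINV1 by tissue -0.18 in control Col-0 and 0.097 in control bam1, and cwINV3 -0.081 under drought in Col-0 leaves. With slide as a random block, SUS4 was 0.049 by tissue in control bam1. Leaving out 1 array at a time, changes under drought ran for AT1G62660 from -0.066 to 0.12 in bam1 leaves and -0.60 to 0.050 in bam1 stomata, SUS1 from -0.065 to 0.49 in bam1 stomata, SUS4 from -0.88 to 0.023 in Col-0 stomata and -0.56 to 0.38 in bam1 stomata, cwINV3 from -0.0016 to 0.10 in Col-0 leaves and -0.40 to 0.38 in bam1 stomata, and cwINV6 from -0.60 to 0.26 in Col-0 stomata and -0.28 to 0.00089 in bam1 leaves. By tissue they ran for AT1G62660 from -0.64 to 0.0063, SUS1 from -0.46 to 0.020 and SUS4 from -0.57 to 0.43 in control bam1, and for cwINV1 from -0.11 to 0.30 in control Col-0, -0.75 to 0.26 in control bam1 and -0.82 to 0.41 in droughted Col-0. The share of called probes that were higher was, with the 75th percentile shift, 37.6% in Col-0 stomata under drought (52.3% with quantiles), 60.1% by tissue in control Col-0 (48.7%) and 48.2% for tissue by drought in Col-0 (68.6%, and 56.3% with normexp). The cause of these shifts was not tested. Groups of 2 or 3 arrays limit precision, and signals near background, such as those of cwINV6 in droughted bam1 stomata, leave the size of a fold uncertain.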
